A study of Homo sapiens with 4 samples.

Results

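The sestrins, DDIT4 and the regulators and subunits of mTORC1 are 10 genes among the 19775 that a probe set named alone on these arrays. They were chosen by name, with their log2 intensities, their siRNA difference in each cell line and the difference between the lines already known, so every such value below is a description and carries no test. A set of 20 of the 54613 probe sets named 1 of these 10 genes, and 0 probe sets named a member together with another gene. Of the 10 genes, 8 had a mean log2 intensity over the 4 arrays of at least 5 (an intensity of 32), the level minimum used here for a gene to count as analysed. DDIT4L and DEPTOR lay under it and are described apart.

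mTORC1 is the protein kinase complex through which cells match protein synthesis and growth to amino acids, growth factors and stress. Its kinase, MTOR, works with the scaffold RPTOR, which presents substrates, and with DEPTOR and AKT1S1 (PRAS40), which hold the kinase back. The small GTPase RHEB switches the complex on at the lysosome, and the tuberous sclerosis proteins TSC1 and TSC2 switch RHEB off. DDIT4 (REDD1) and its relative DDIT4L (REDD2) are stress-induced proteins that act through the TSC complex. The sestrins SESN1, SESN2 and SESN3 restrain mTORC1 on the amino acid branch by binding GATOR2, and SESN2 is known as a leucine sensor. Several of these inhibitors are known to be induced at the transcript level: SESN2 and DDIT4 by the stress factor ATF4, SESN1 by p53 and SESN3 by FOXO factors.

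Each of 4 HG-U133 Plus 2.0 arrays, which read whole-genome transcript levels with sets of short probes, held RNA from 1 culture condition, collected 48 h after transfection. The groups were A375 with a negative control siRNA, A375 with an siRNA against ZIC5, SK-MEL-28 with the negative control siRNA and SK-MEL-28 with the siRNA against ZIC5, 1 array each. ZIC5 is a zinc-finger transcription factor, and A375 and SK-MEL-28 are established human melanoma lines with activated BRAF. No group had a replicate array, so no value within a line has a replicate error, and the number of arrays limits the precision. Median intensities lay between 38.4 and 39.4. The ZIC5 probe set read 16.8 and 14.1 in A375 against 21.4 and 15.5 in SK-MEL-28, with control and ZIC5 siRNA in that order, between percentiles 25.7 and 34.5 of all probe sets, too low on the scale to check the labels. Of 6 melanocyte lineage genes read, the pigment cell genes MLANA (13.9 and 17.0), PMEL (32.4 and 35.9) and TYR (33.5 and 26.7) were at or under the array median in A375, while MITF (357 and 235), S100B (413 and 334) and SOX10 (895 and 1660) were well above it. In SK-MEL-28 all 6 read between 1373 and 18212. SOX10 differed with siRNA by 0.89 in A375 against -0.15 in SK-MEL-28 on the log2 scale. The summed intensity of 4 fibroblast markers went from 425.0 under control siRNA to 239.2 under ZIC5 siRNA in A375. For SK-MEL-28 the sums were 1113.6 and 753.0. LUM made the largest change in each sum, from 162 to 14.9 and from 875 to 498. COL1A1 was lower with ZIC5 siRNA in A375 (190 and 152) but higher in SK-MEL-28 (159 and 177). DCN changed little (47.4 and 46.3, then 54.5 and 51.4), as did COL1A2 (25.7 on both A375 arrays, then 24.7 and 26.6). The lower sums thus mainly reflect LUM and not the 4 markers as a set. The sums over 3 keratinocyte, 3 leukocyte and 3 endothelial markers lay between 80.5 and 437.8 on every array. The part of these markers in the results below was not tested. As an array reads a whole culture, more cells with a transcript and more of it per cell cannot be told apart.

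Shown here are windows around the annotated starts of SESN2, SESN3, DDIT4 and TSC2. The first 3 genes had the greatest siRNA differences of the members and were high together in both lines. TSC2 is shown because it alone, among the 8 members whose windows were read, held a match to the amino acid response element core. Each window runs from 250 bases before the start to 50 after it, from RefSeq on GRCh38.p14. Capitals mark matches to any of the motifs named in the next paragraph.
SESN2, chr1:28259268-28259567, plus strand: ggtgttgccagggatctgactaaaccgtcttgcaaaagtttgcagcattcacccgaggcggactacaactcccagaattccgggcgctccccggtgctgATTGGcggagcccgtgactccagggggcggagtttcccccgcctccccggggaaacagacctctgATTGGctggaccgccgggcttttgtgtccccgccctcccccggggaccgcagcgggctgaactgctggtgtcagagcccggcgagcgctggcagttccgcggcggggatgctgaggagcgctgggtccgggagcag
SESN3, chr11:95232426-95232725, minus strand: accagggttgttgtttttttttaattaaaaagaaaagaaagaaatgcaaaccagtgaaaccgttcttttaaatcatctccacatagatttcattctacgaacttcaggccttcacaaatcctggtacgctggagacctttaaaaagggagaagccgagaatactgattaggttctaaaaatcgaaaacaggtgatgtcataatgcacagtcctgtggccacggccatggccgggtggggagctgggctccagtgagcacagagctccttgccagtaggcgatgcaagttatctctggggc
DDIT4, chr10:72273674-72273973, plus strand: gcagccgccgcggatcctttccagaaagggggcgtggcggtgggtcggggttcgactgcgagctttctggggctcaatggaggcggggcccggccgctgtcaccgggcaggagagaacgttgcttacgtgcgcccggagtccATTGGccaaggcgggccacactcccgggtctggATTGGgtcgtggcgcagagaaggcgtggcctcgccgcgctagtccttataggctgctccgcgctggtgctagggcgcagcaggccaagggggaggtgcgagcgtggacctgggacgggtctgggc
TSC2, chr16:2047735-2048034, plus strand: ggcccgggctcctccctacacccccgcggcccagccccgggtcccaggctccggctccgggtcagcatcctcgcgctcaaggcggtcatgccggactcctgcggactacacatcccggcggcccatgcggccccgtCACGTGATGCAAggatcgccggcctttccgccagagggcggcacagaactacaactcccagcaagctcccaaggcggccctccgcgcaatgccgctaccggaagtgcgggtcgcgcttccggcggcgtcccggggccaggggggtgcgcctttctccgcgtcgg

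RefSeq windows were read for 8 of the 10 members, 11 windows in all, as SESN1 has 3 annotated starts and TSC2 has 2. AKT1S1 was not matched, and that of DEPTOR was not used here. The core TGATGNAA, which ATF4 dimers are known to bind, was searched on both strands and matched 1 of the 11 windows, against 3.62% of all 35116 windows of 300 bases. The match was TGATGCAA in TSC2, at -110 to -103 from the start, and it shares its first bases with a CACGTG E-box at -114 to -109. CACGTG matched that 1 window, against 7.26% of all windows. The forkhead letters GTAAACA matched 0 of 11 windows against 3.42% of all, and TGACGTCA, the cyclic AMP response element, 0 against 1.85%. CCAAT, added after the letters of these windows were seen, matched 4 of 11 windows against 34.6% of all. SESN2 and DDIT4 each held 2 CCAAT matches on the minus strand, at -151 and -86 in SESN2 and at -108 and -75 in DDIT4. SESN1, lower with ZIC5 siRNA in both lines, held a match at -90 in 1 window and at -75 in another. The SESN3 window held 0. The share was near that of all windows, so nothing is read from these matches. These are letter matches and not sites, and the motifs were not looked for outside the windows.

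**Figure D1:**
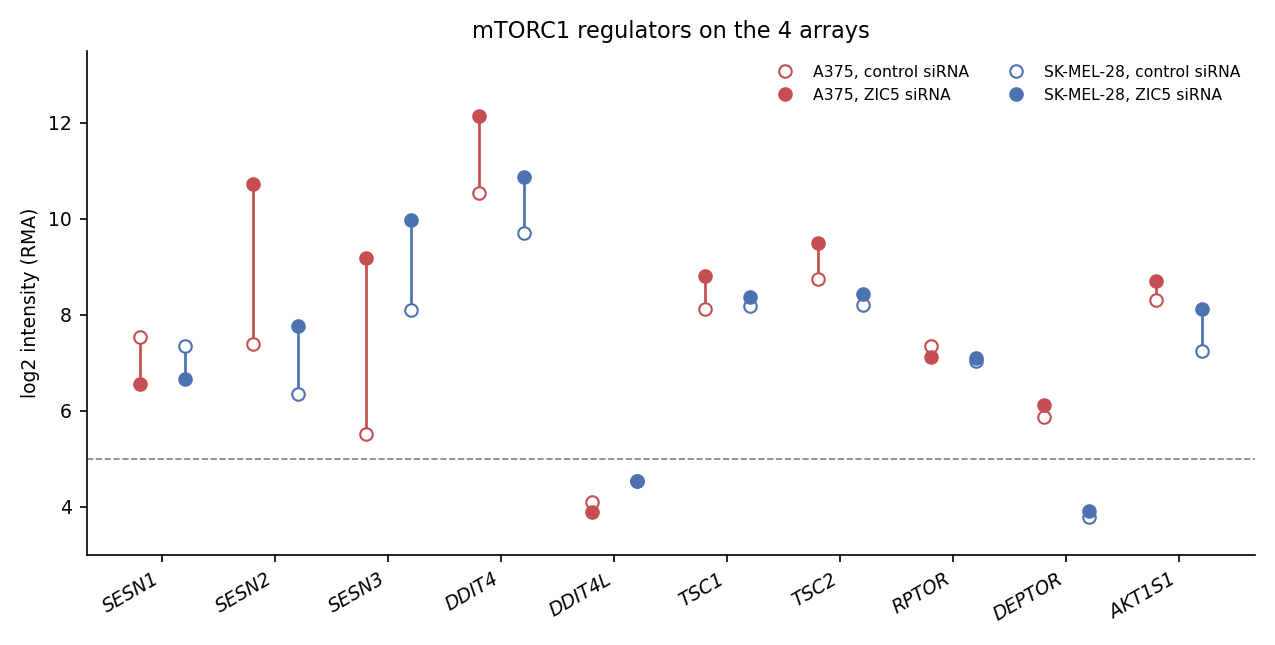
Log2 intensity (y axis) of the probe set that represents each of the 10 genes (x axis) on the 4 arrays. Open circles are control siRNA, filled circles ZIC5 siRNA, red A375 and blue SK-MEL-28, each circle 1 array, and the dashed line is the level minimum of 5. SESN2, SESN3 and DDIT4 are higher with ZIC5 siRNA in both lines, SESN1 is lower in both, and DDIT4L lies under the minimum on all 4 arrays.

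SESN2, SESN3 and DDIT4 were at least 2-fold higher with ZIC5 siRNA in each line, and 0 members were at least 2-fold lower in either. That is 3 of the 8 members analysed in A375, where 3.89% of the 13794 genes analysed were as much higher, and 3 of 8 in SK-MEL-28, where 0.776% were. The same 3 genes make up both counts, and 0.312% of genes passed 2-fold upward in A375 and in SK-MEL-28 alike. The members were chosen with these differences known, so nothing is read from the shares. At least 2-fold lower were 5.05% of genes in A375 against 2.12% in SK-MEL-28. Over the 8 members the median log2 difference was 0.72 in A375 against 0.56 in SK-MEL-28, beside -0.01 and 0.00 over all genes analysed. Just inside the 2-fold size was DDIT4 in SK-MEL-28, at a log2 difference of 1.15, and just outside it were SESN1 in A375, at -0.96, and AKT1S1 in SK-MEL-28, at 0.89.

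SESN2, the leucine-binding sestrin, had an A375 intensity of 168 under control siRNA and 1682 under ZIC5 siRNA, and SK-MEL-28 intensities of 81.9 and 217. It was thus highest by a wide margin in A375 with ZIC5 siRNA, and lowest in SK-MEL-28 with control siRNA. Its log2 differences were 3.32 and, in SK-MEL-28, 1.41 (2.65-fold). The other SESN2 probe set, 223196_s_at, read 113 and 1136 in A375 against 83.5 and 180 in SK-MEL-28. Its log2 differences were 3.33 and 1.11, so the A375 size was nearly the same on both probe sets and the SK-MEL-28 size was smaller on the dimmer one. Both SESN2 probe sets, and the single ones of SESN1 and DDIT4, end in _s_at, the mark for probes that can match more than 1 transcript. Among the 13794 genes, SESN2 ranked 9 from the top in A375 against 19 in SK-MEL-28.

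SESN3 had an intensity of 45.9 and 584 in A375 against 275 and 1003 in SK-MEL-28 on its brightest probe set, 225123_at. Its order over the arrays differed from that of SESN2: SK-MEL-28 was above A375 under either siRNA, and the A375 control array was lowest. The difference was 12.7-fold in A375 (3.67 on the log2 scale) and 3.65-fold in SK-MEL-28 (1.87), and SESN3 ranked 6 from the top in each line. SESN3 had 7 probe sets, of which 225123_at and 235683_at met the level minimum. On 235683_at the intensities were 19.4 and 82.4 in A375 against 71.1 and 227 in SK-MEL-28, log2 differences of 2.09 and 1.67. The gap between the lines in response was thus 1.80 on the brightest probe set and 0.41 on the next.

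The other 5 SESN3 probe sets were dim, with 4.46 to 10.6 on the A375 control array, 6.36 to 17.6 on the A375 ZIC5 siRNA array, and, on the corresponding SK-MEL-28 arrays, 5.86 to 14.5 and 7.85 to 46.5. Their log2 differences ran from 0.01 to 0.73 in A375 and from -0.23 to 1.68 in SK-MEL-28. Counting all 7, the sign was positive in 7 in A375 and in 6 in SK-MEL-28, the exception being 1553869_at, with 9.19 and 7.85. The SD between the 7 differences was 1.34 in A375 against 0.74 in SK-MEL-28, beside 0.25 and 0.15 for the median within-gene SD of probe sets, which is the SD between the differences of a gene's own probe sets, taken as a median over 6635 genes. The sign of the SESN3 difference was therefore shared by the 2 probe sets at the level minimum, while its size depended on which was read.

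**Figure D2:**
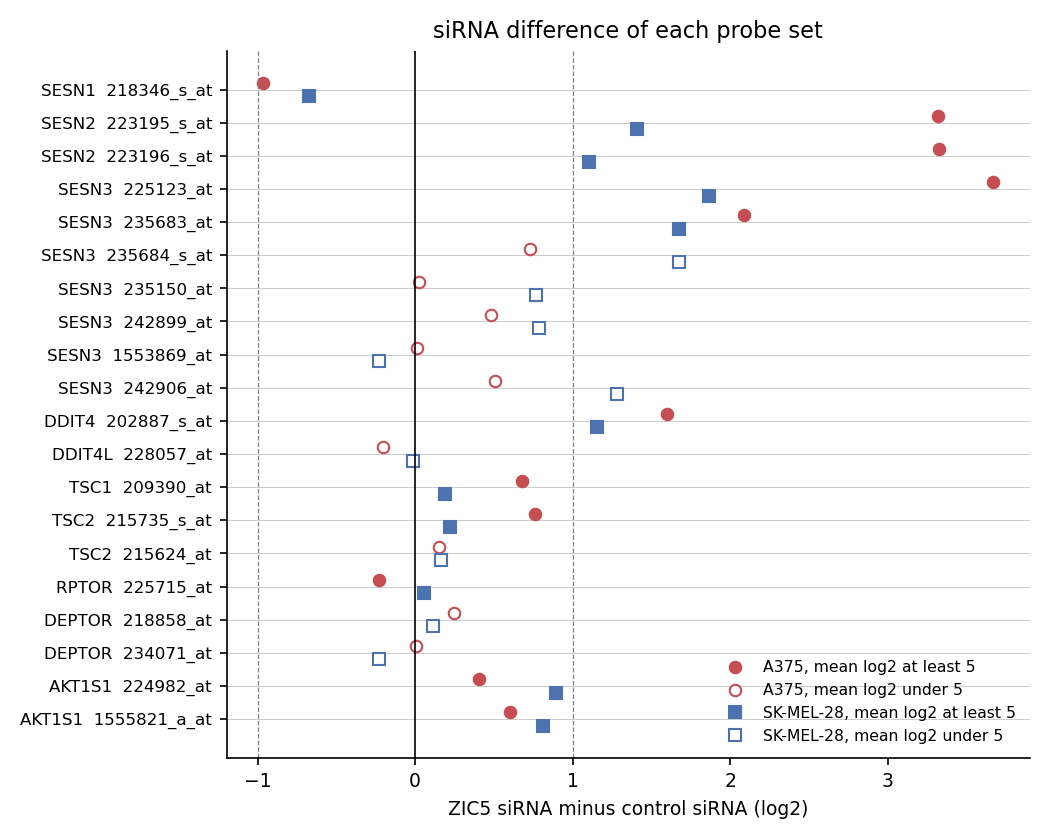
ZIC5 siRNA minus control siRNA in log2 intensity (x axis) for each of the 20 probe sets (y axis), with red circles for A375 and blue squares for SK-MEL-28. Filled symbols are probe sets whose mean log2 intensity was 5 or more and open symbols those under it, and dashed lines mark 2-fold. The 2 SESN2 probe sets lie together at 3.32 and 3.33 in A375, while the 7 SESN3 probe sets spread from 0.01 to 3.67.

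SESN1, the sestrin best known as a p53 target, was the only sestrin of the 3 with a negative difference in either line on the probe sets that represent the genes. Its intensity was 185 and 94.9 in A375 against 162 and 102 in SK-MEL-28. The ZIC5 siRNA array was thus the lower in each line, by 1.95-fold in A375 (-0.96) and 1.60-fold in SK-MEL-28 (-0.67), with the control arrays of the lines close together. These values rest on 1 probe set. From the bottom of the 13794 genes SESN1 ranked 744 in A375 against 675 in SK-MEL-28.

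DDIT4, which stress signals induce and which acts through the TSC complex, had intensities of 1488 and 4514 in A375 against 838 and 1865 in SK-MEL-28, on 1 probe set. Each ZIC5 siRNA array was above both control arrays. The difference was 3.03-fold in A375 (1.60) and 2.23-fold in SK-MEL-28 (1.15), which ranked 149 and 48 from the top. Its relative DDIT4L read 17.2 and 14.9 in A375 against 23.4 and 23.1 in SK-MEL-28, between percentiles 26.8 and 36.8 of all probe sets. Its log2 differences were -0.20 and -0.02, and with intensities under 32 set to 32 both were 0.

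Both subunits of the tuberous sclerosis complex that were among the members were higher in A375 with ZIC5 siRNA, by less than 2-fold. TSC1, the stabilising subunit, read 279 and 447 in A375 against 291 and 332 in SK-MEL-28, so that the A375 ZIC5 siRNA array stood above the other 3, and the differences were 0.68 and 0.19. TSC2, the subunit that acts on RHEB, read 427 and 724 in A375 against 296 and 345 in SK-MEL-28, log2 differences of 0.76 and 0.22. A dimmer TSC2 probe set, 215624_at, under the level minimum, read 35.0 and 38.8 in A375 against 20.4 and 22.8 in SK-MEL-28, and its differences were 0.15 and 0.17. In SK-MEL-28 the TSC1 and TSC2 differences were only a little above the median within-gene SD of probe sets, 0.15.

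Among the parts of mTORC1 itself, AKT1S1, the inhibitory subunit that AKT phosphorylates, was higher with ZIC5 siRNA in both lines. Its intensity was 316 and 418 in A375 against 151 and 280 in SK-MEL-28, log2 differences of 0.41 and 0.89. Its difference was the larger in SK-MEL-28, where it ranked 155 from the top, against 2692 in A375. The dimmer AKT1S1 probe set, 1555821_a_at, read 33.8 and 51.3 in A375 against 20.0 and 35.2 in SK-MEL-28, and its differences of 0.60 and 0.81 lay closer together. RPTOR, the scaffold, read 164 and 140 in A375 against 132 and 137 in SK-MEL-28. Its differences of -0.23 and 0.06 were within the median within-gene SD of probe sets in each line.

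DEPTOR, the other inhibitory subunit, differed little with siRNA and much between the lines. Its brighter probe set read 58.4 and 69.3 in A375 against 13.9 and 15.0 in SK-MEL-28, so that both A375 arrays stood above both SK-MEL-28 arrays. The siRNA differences were 0.25 and 0.11. A375 was 4.20-fold higher than SK-MEL-28 with control siRNA (2.07 on the log2 scale), but the SK-MEL-28 values were near percentile 25.0 of that array, and with intensities under 32 set to 32 the line difference was 0.87. The second DEPTOR probe set read 5.19 to 6.32 on the 4 arrays and gives no level.

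**Figure D3:**
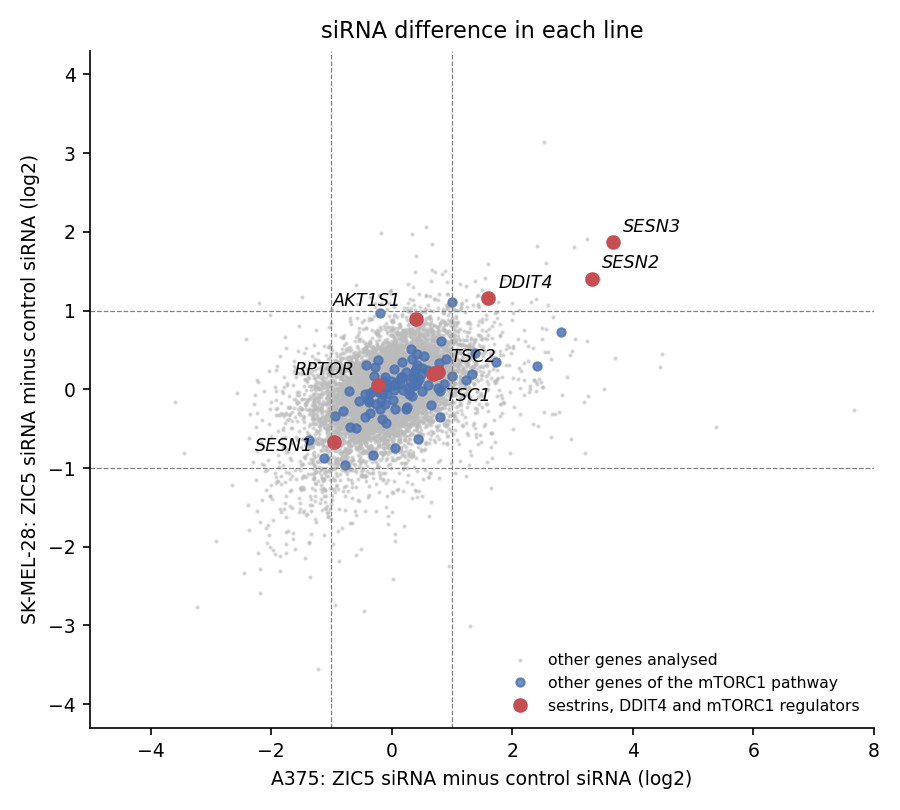
ZIC5 siRNA minus control siRNA in log2 intensity in A375 (x axis) and in SK-MEL-28 (y axis), 1 point per gene, with the 8 members analysed in red, other mTORC1 pathway genes in blue and the remaining genes analysed in grey. Dashed lines mark 2-fold; SESN3 (3.67, 1.87), SESN2 (3.32, 1.41) and DDIT4 (1.60, 1.15) lie past them in both lines and SESN1 (-0.96, -0.67) lies on the opposite side.

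The 2 lines are the only replication of the siRNA effect, and an additive fit over all 4 arrays, with the line as a covariate, gives each mean difference an error. SESN3 had a mean log2 difference of 2.77 (SE 0.49, 2 lines), SESN2 of 2.36 (SE 0.52) and DDIT4 of 1.38 (SE 0.17). The SE of DDIT4 was smaller than those of SESN2 and SESN3, whose differences in the 2 lines were less similar. It was also under those of SESN1 and RPTOR, whose differences were more similar, so the gap between lines alone does not set the SE. SESN1 had a mean of -0.82 (SE 0.19), AKT1S1 of 0.65 (SE 0.21), TSC2 of 0.49 (SE 0.22), TSC1 of 0.44 (SE 0.21) and RPTOR of -0.09 (SE 0.19). The SE comes from limma with its spread pooled over genes. By limma with Benjamini-Hochberg adjustment, 0 of the 13794 genes (0.0%) passed 0.05, and 1824 had an unadjusted p under it, while no p is given for the members.

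On the probe sets that represent the genes, the response of SESN2 and SESN3 was larger in A375 than in SK-MEL-28. The gaps were 1.91 and 1.80 on the log2 scale, or 3.77-fold and 3.49-fold. On the second probe set of each gene they were 2.22 for SESN2 and 0.41 for SESN3. The dim SESN3 probe sets 235684_s_at, 235150_at, 242899_at and 242906_at gave -0.95, -0.74, -0.31 and -0.77, larger in SK-MEL-28, and 1553869_at gave 0.24. At least 1 log2 unit larger in A375 were 3.58% of genes. DDIT4 differed by 0.45 between the lines in this way, TSC2 by 0.54, TSC1 by 0.49 and AKT1S1 by -0.49, the last larger in SK-MEL-28. With 1 array per group these differences between lines were not tested.

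**Figure D4:**
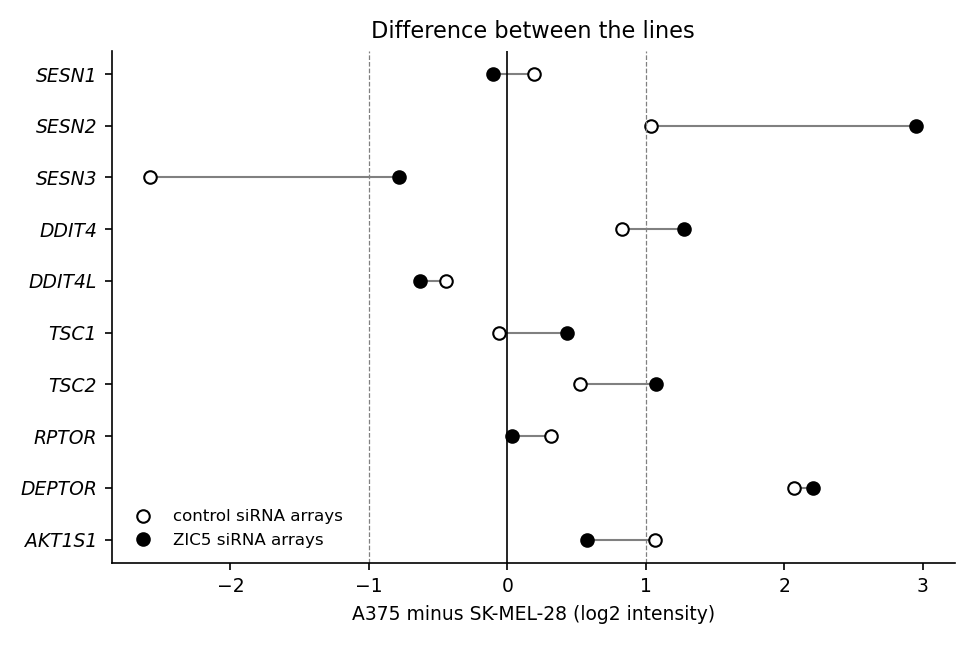
Log2 intensity in A375 minus that in SK-MEL-28 (x axis) for each of the 10 genes (y axis), with open circles for the control siRNA arrays and filled circles for the ZIC5 siRNA arrays, and dashed lines at 2-fold. On the probe sets that represent them, SESN2 goes from 1.04 to 2.95 and SESN3 from -2.58 to -0.78, while DEPTOR stays near 2.07.

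Under control siRNA, 2 of the 8 members analysed were at least 2-fold higher in A375 than in SK-MEL-28, SESN2 (2.06-fold) and AKT1S1 (2.09-fold), where 11.0% of genes were. Both lie at the edge of the size rule, with log2 differences of 1.04 and 1.07, and DDIT4, at 0.83, lay just short of it. SESN3 was the 1 member at least 2-fold lower in A375, at 5.99-fold (-2.58), where 11.2% of genes were. SESN1, TSC1, TSC2 and RPTOR differed by 0.19, -0.06, 0.53 and 0.32. On the second SESN2 probe set the control difference was 0.44, and on the second SESN3 probe set -1.87. Under ZIC5 siRNA the lines stood 7.75-fold apart in SESN2, with A375 higher, and 1.72-fold apart in SESN3, with A375 lower. On the probe sets that represent the genes, the lines were thus farther apart in SESN2 and closer together in SESN3 under ZIC5 siRNA. On the second SESN2 probe set the difference under ZIC5 siRNA was 2.66. On the second SESN3 probe set it was -1.46, a smaller narrowing. The dim SESN3 probe sets had wider gaps under ZIC5 siRNA, except 1553869_at, which went from -0.33 to -0.09. Under ZIC5 siRNA, DDIT4 and TSC2 were 2.42-fold and 2.10-fold higher in A375, and 12.0% of genes were at least 2-fold higher there.

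Genes with the most similar pattern were taken by the Euclidean distance over the 4 log2 values after each gene's own mean was subtracted. The nearest to DDIT4 was PSPH, the last enzyme of serine synthesis, at a distance of 0.18, with 534 and 1457 in A375 against 322 and 664 in SK-MEL-28. NBEA (0.24), the ERK phosphatase DUSP6 (0.32), the cystathionine synthase CBS (0.32) and the calcium sensor STIM2 (0.35) followed. SESN2 and SESN3 had no gene as near. The distance is not scaled, so genes with large differences tend to lie farther from others, and a larger distance need not mark a rarer pattern. The SESN3 distances rest on 225123_at. For SESN2 the nearest were the arrestin-domain gene ARRDC3 (0.77), the protocadherin PCDH9 (0.77), the stress factor ATF3 (0.82), BRINP2 (0.90) and the histone demethylase KDM7A (0.95). ARRDC3 read 212 and 1055 in A375 against 70.9 and 153 in SK-MEL-28, above SK-MEL-28 in A375 under either siRNA as SESN2 was. For SESN3 they were the uridine phosphorylase UPP1 (1.13), the early growth response factor EGR3 (1.32), the ubiquitin ligases CBLB (1.37) and FBXO32 (1.41), and the adaptor GRB10 (1.44). UPP1 read 391 and 2206 in A375 against 2306 and 3966 in SK-MEL-28, lowest on the A375 control array as SESN3 was.

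The rest of the pathway was read from 9 lists of 101 genes, of which 92 were analysed. In A375, 8 of these 92 were higher by 2-fold or more and 2 were lower by as much, beside 3.89% and 5.05% of all genes. In SK-MEL-28, 1 was higher and 0 were lower, beside 0.776% and 2.12%. The median difference over the 92 was 0.17 in A375 against 0.05 in SK-MEL-28, with 55 and 51 of them above 0. None of the 92 reached the difference of SESN2 or SESN3 in either line on the probe sets that represent the genes. On the second SESN3 probe set, 235683_at, the A375 difference was 2.09, which DDIT3 (2.80) and GRB10 (2.40) passed. On the second SESN2 probe set the SK-MEL-28 difference was 1.11, beside 1.10 for ATF4.

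On the amino acid branch, where the sestrins act, the inhibitory GATOR1 complex and its anchor KICSTOR had a median of -0.56 over 6 genes in A375 against -0.08 in SK-MEL-28. The parts differed on the probe sets that represent them. Of the GATOR1 subunits, DEPDC5 (0.42 and 0.31) and NPRL2 (0.38 and 0.06) were above 0 in both lines and NPRL3 (-0.40 and -0.13) below. The KICSTOR subunits analysed were all below 0, ITFG2 by -0.72 and -0.02. NPRL3 had its sign in 2 of 4 probe sets in A375 and 1 of 4 in SK-MEL-28, and ITFG2 in 3 of 4 and 2 of 4. The direction of NPRL3 thus depended on the probe set read, as did that of ITFG2 in SK-MEL-28. DEPDC5, NPRL2, NPRL3 and ITFG2 were named after their values were seen. KICS2, a KICSTOR subunit, read 167 and 76.9 in A375 against 116 and 63.1 in SK-MEL-28, log2 differences of -1.12 and -0.88 with that sign in all 3 of its probe sets. KPTN, another KICSTOR subunit, differed by -0.95 and -0.34. GATOR2, the complex that sestrins bind, and the amino acid sensors had medians of -0.14 and -0.06 over 9 genes. WDR24 of GATOR2 differed by -0.80 and -0.28, and the arginine sensor CASTOR1 by -0.19 and 0.96. Among Rag GTPases, Ragulator and folliculin genes, 11 in all, the median was 0.36 and 0.01. Folliculin (FLCN) read 74.5 and 194 in A375 against 120 and 165 in SK-MEL-28, log2 differences of 1.38 and 0.46, with that sign in 2 of 3 probe sets in each line. The Ragulator subunit LAMTOR5 read 2771 and 1620 in A375 against 4100 and 2098 in SK-MEL-28, log2 differences of -0.77 and -0.97.

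MTOR, RHEB and their partners showed the narrowest range in A375 of the 9 lists, from -0.69 to 0.36 over 12 genes, with medians of 0.04 and 0.02. The extremes of the named genes were TTI2, which helps assemble MTOR, at -0.69 and -0.48, and the RHEB relative RHEBL1, at 0.34 and 0.38. TBC1D7, the third TSC subunit, was named after its values were seen: it read 358 and 290 in A375 against 3913 and 3857 in SK-MEL-28, 10.9-fold lower in A375 with control siRNA, while TSC1 and TSC2 differed between the lines by less than 2-fold there. Of 10 AMPK and LKB1 genes, which feed energy stress into the pathway, the gamma subunit PRKAG2 read 233 and 89.7 in A375 against 88.8 and 56.7 in SK-MEL-28, log2 differences of -1.38 and -0.65. The beta subunit PRKAB2 differed by -0.32 and -0.83, and the list medians were -0.04 and -0.05. Of 8 PI3K and AKT genes the phosphatase INPP4B was higher by 1.23 in A375 against 0.12 in SK-MEL-28, and the insulin receptor substrate IRS2 by 0.90 and 0.39, with list medians of 0.25 and 0.11.

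Downstream of mTORC1, 14 substrates and effectors had medians of 0.28 and 0.17. The adaptor GRB10 read 80.4 and 426 in A375 against 468 and 573 in SK-MEL-28, log2 differences of 2.40 and 0.29, and the autophagy kinase ULK1 read 182 and 460 and 161 and 184, differences of 1.34 and 0.20. Of 11 factors known to act on sestrin or DDIT4 transcription, 9 were above 0 in A375 against 7 in SK-MEL-28, with medians of 0.51 and 0.16. ATF4 was the 1 pathway gene at least 2-fold higher in both lines, with 3284 and 6583 in A375 against 2667 and 5731 in SK-MEL-28, so it stood at the 2-fold size in A375 and was higher by 1.10 in the other line. DDIT3 (CHOP), the stress factor downstream of ATF4, read 214 and 1497 in A375 against 261 and 431 in SK-MEL-28, 6.98-fold and 1.65-fold higher, and XBP1 read 336 and 673 in A375 and differed by 0.16 in SK-MEL-28. Among 11 sestrin partners and degraders the medians were 0.05 and 0.03, and TXNIP, the thioredoxin-binding protein, read 196 and 650 in A375 against 954 and 1210 in SK-MEL-28, log2 differences of 1.73 and 0.34. The autophagy receptor SQSTM1 differed by 0.80 and -0.02, with that sign in 3 of 4 probe sets in A375 and 2 of 4 in SK-MEL-28. SESN3, GRB10 and TXNIP stood lowest on the A375 control array. So did other pathway genes named above, among them FLCN, INPP4B, DDIT3, XBP1 and SQSTM1, and the trait is not particular to SESN3.

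**Figure D5:**
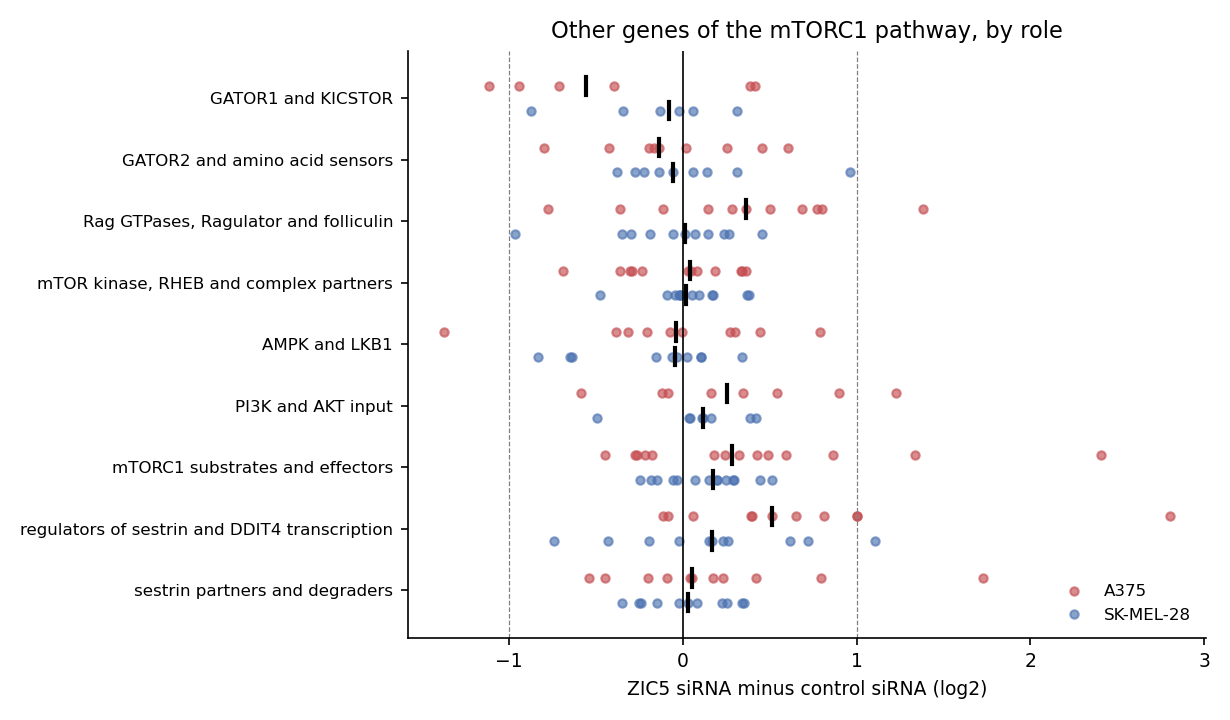
ZIC5 siRNA minus control siRNA in log2 intensity (x axis) for each analysed gene of the 9 pathway lists (y axis), red for A375 and blue for SK-MEL-28, with black bars at each list's median and dashed lines at 2-fold. Medians run from -0.56 (GATOR1 and KICSTOR) to 0.51 (regulators of sestrin and DDIT4 transcription) in A375, and from -0.08 to 0.17 in SK-MEL-28.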

How the data were processed

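The intensity values the authors deposited, 1 for each probe set on each array, come from RMA run in the Affymetrix Expression Console, according to the submitters' processing notes; versions are not given in the sources used here. RMA already corrects background and equalises the distributions of arrays, so a shift common to most genes would not be seen. The deposited intensity values are linear, and log2 was taken here. Per the labels' protocols, 100 ng of RNA gave the biotinylated cRNA. Samples were grouped by the labels alone, and detection calls were not used.

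Gene names are those of the platform annotation given with the data: among 54613 probe sets, 41091 carry 1 gene name, 1801 several and 11721 none. By entrez ID 41037 matched RefSeq (GRCh38.p14), with 0 symbols changed. The probe set with the highest mean represents a gene. The size rule was 2-fold. The additive fit (line and siRNA) used limma 3.58.1 in R 4.3.3, lmFit and eBayes with trend. It was also run on simulated arrays with the same shift in both lines, which says nothing about a response that differs between lines. The fit had 1 residual degree of freedom and 2.85 prior degrees of freedom. That 1 residual degree of freedom is the gap between the responses of A375 and SK-MEL-28. Its p-values rest on that gap, with the spread pooled over genes, and a line difference and technical spread cannot be told apart in it. Members, pathway lists and markers were chosen with earlier results of these data known. Named were all members, each list's genes at least 2-fold different in either line, filled up to 2 per list by mean absolute difference, and the 5 genes nearest to SESN2, SESN3 and DDIT4. Pathway genes not named in the annotation are not analysed here.

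Alternatives were no level minimum, a minimum of 7, intensities under 32 set to 32, cyclic loess, median centring, the mean over probe sets at the level minimum, no _x_at or _s_at probe sets where a gene has others, a 1.5-fold size rule and eBayes without trend.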

Additional observations from a re-analysis of the deposited data

Results flagged for a closer look

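Among the members, their probe sets and the pathway genes named by the rule, values whose siRNA difference had opposite signs in A375 and SK-MEL-28 are given here whatever their size; pathway genes outside the rule are not listed, and with 1 array per group the difference between the lines was not tested. The A375 difference minus that of SK-MEL-28 was -0.28 for RPTOR (-0.23 and 0.06), -1.16 for CASTOR1 (-0.19 and 0.96) and 0.82 for SQSTM1 (0.80 and -0.02). On dim probe sets it was 0.24 for SESN3 on 1553869_at (0.01 and -0.23) and 0.23 for DEPTOR on 234071_at (0.00 and -0.23). SQSTM1 had its SK-MEL-28 sign in 2 of 4 probe sets, so its direction there depended on the probe set read.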

How the results depend on the processing

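The counts of members at least 2-fold higher with ZIC5 siRNA, 3 in each line, held under the alternatives that kept the size rule at 2-fold. Leaving out _x_at and _s_at probe sets changed nothing for SESN1, SESN2 and DDIT4 by construction, as they have no others and kept theirs, so it says nothing about those genes. With a 1.5-fold rule 5 were higher and 1 lower in A375, and 4 were higher and 1 lower in SK-MEL-28, by construction of the rule. Members at least 2-fold higher in A375 than SK-MEL-28 with control siRNA numbered 1 under cyclic loess, where SESN2 had 0.98, and 0 with the mean over probe sets, where SESN2 had 0.74. Among pathway genes, those 2-fold lower in A375 numbered 0 with a minimum of 7, which tests fewer genes, and those 2-fold higher in SK-MEL-28 numbered 2 with the mean over probe sets and 2 without _x_at and _s_at probe sets, where the cause was not tested. With the 1.5-fold rule the pathway counts were 19 higher and 8 lower in A375 and 4 higher and 6 lower in SK-MEL-28. The additive limma fit called 0 genes under every alternative run. Of 198 member values under alternatives, 0 changed sign and 8 moved by more than the median SD between probe sets. The 30 values with no level minimum and the 24 with a minimum of 7 could not move, as these settings change only which genes count. Genes with 1 probe set at the level minimum were fixed under the mean over probe sets. Without _x_at and _s_at probe sets, TSC2 alone among the members could move. The tally is therefore no measure of stability. Over probe sets, SESN3 averaged 2.88 in A375, and TSC2 without _s_at probe sets had 0.15 there. The additive fit pairs the arrays by cell line. No paired analysis was possible by replicate number because each group held 1 array. Dim signal limits DEPTOR, DDIT4L and 5 SESN3 probe sets.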
